A study of Rattus norvegicus with 46 samples.

Results

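Rat hearts were examined 3 weeks after a myocardial infarction (MI). The left anterior descending coronary artery was ligated in male Wistar rats, and sham rats had the same operation without a lasting tie of the vessel. Only hearts with large transmural infarcts were taken, the scar was cut away, and RNA of the remaining left ventricle was pooled before hybridisation, so that each array measured a pool of animals. These data therefore describe surviving myocardium. The p-values measure the spread between pools of a group, estimated for each probe set over all 20 groups of the series. They do not measure the spread of the MI and sham arrays of 3 weeks alone. The arrays were taken by their titles: 4 MI arrays, called replicates 3 to 6, and 2 sham arrays, called replicates 1 and 2, of 46 arrays in the series. The other arrays cover aortic banding, aortocaval shunt, angiotensin II, the thyroid hormone analogue Ditpa, neonatal hearts and MI at 9 weeks. Of these, MI at 9 weeks (4 arrays against 2 sham arrays) and shunt at 3 weeks (2 arrays against 2 sham arrays), a volume load in which blood passes from the aorta to the vena cava, are set beside MI at 3 weeks here. Each array held 8740 probe sets, groups of short probes for 1 transcript, and 7006 of them carried a single gene symbol, for 4736 genes.

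After an infarction the surviving myocytes carry a higher wall stress and enlarge. The adult rat ventricle then turns on genes of the fetal heart, among them the natriuretic peptides, skeletal α-actin and β-myosin heavy chain. Fibroblasts deposit collagen and matricellular proteins, and the heart shifts its fuel use away from fatty acids.

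MI at 3 weeks gave a small set of called changes, all of them above sham. Of 8740 probe sets, 18 rose (0.206%) and 0 fell (0%) at an adjusted p under 0.05 in limma, a linear model with moderated variances fitted over all 46 arrays. At an unadjusted p under 0.05 there were 400 probe sets (4.58%), of which 265 were above and 135 below sham. If no probe set differed, a share of about 0.05 would be expected there, so this count is no excess. The 18 probe sets stood for 14 genes: Nppa, Nppb, Acta1, Myh7, Ankrd1, Bgn, Col3a1, Akip1, Maoa, Tsc22d1, Bmpr1a, Myl9, Clu and Eno1. By the brightest probe set of each gene, 11 of 4736 genes were called higher (0.232%). The median difference over all probe sets was -0.0074 on the log2 scale, and the median standard error of a difference was 0.149.

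The array medians lay between 1002.6 and 1084.4 intensity units over the 46 arrays. On all 6 arrays, 6 probe sets stood within 1% of the highest value of the array, among them Tpm1, Tnni3 and Actc1 of the sarcomere. That highest value was 45551 to 64869 on the MI arrays and 49483 to 54280 on the sham arrays. Values of the brightest genes near it have only a bound, and the differences of those 6 probe sets, 0.13 to 0.14 on the log2 scale, are differences of the ceiling. All 12 cardiomyocyte markers read at least 383 units on every array. Their sum, which holds probe sets at the ceiling, was 334454 to 396065 in MI and 362362 to 377243 in sham, with overlap. In 3 of the 12 all MI arrays were below both sham arrays, and in 0 all were above (median -0.05). The shares over all genes were 8.64% below and 8.99% above. MI replicates 3 and 4 correlated about as closely with the sham arrays (mean r of log2 values 0.988 and 0.9884) as with the other MI arrays (0.9877 and 0.9886), across probe sets. Replicates 5 and 6 were at 0.9843 and 0.9863 with sham and at 0.9876 and 0.9878 with the other MI arrays.

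The natriuretic peptide genes and skeletal α-actin were among the called genes, and the 250 bases before their start sites are shown because these promoters are the textbook examples of the reactivated fetal program. The sequences are from RefSeq, build GRCr8. Capitals mark 4 motifs searched on both strands: GATAA, the core bound by GATA factors; CATTCC, the site of TEAD factors; the CArG box, bound by serum response factor; and TATAAA. No marked matches overlap.
Nppa: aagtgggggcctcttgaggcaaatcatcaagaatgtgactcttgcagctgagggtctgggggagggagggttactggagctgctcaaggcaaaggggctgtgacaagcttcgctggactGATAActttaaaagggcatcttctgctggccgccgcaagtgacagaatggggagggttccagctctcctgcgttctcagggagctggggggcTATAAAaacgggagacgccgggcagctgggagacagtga
Nppb: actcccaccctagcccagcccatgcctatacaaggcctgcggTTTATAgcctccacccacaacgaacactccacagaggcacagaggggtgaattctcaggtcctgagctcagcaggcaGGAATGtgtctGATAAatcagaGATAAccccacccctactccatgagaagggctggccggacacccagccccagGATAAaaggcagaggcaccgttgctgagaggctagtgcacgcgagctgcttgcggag
Acta1: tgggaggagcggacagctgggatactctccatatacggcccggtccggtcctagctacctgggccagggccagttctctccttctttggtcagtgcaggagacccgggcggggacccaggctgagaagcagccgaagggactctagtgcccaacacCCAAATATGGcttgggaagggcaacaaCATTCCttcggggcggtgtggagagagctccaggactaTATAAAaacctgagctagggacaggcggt
The Nppa stretch lies at chr5:163711934-163712183, forward strand, the Nppb stretch at chr5:163699758-163700007, forward strand, and the Acta1 stretch at chr19:68784195-68784444, reverse strand. Nppa held 1 GATAA match at 131 bases before the start, and Nppb held 3, at 120, 109 and 57 bases, with 1 CATTCC match at 131 bases on the other strand. Acta1 held no GATAA match but a CArG box at 94 bases and CATTCC at 67 bases. Of 33469 rat promoters, 23.5% held GATAA in the same window, 12.1% CATTCC, 1.5% a CArG box and 12.9% TATAAA. These matches describe the sequence and do not show binding. Of the 14 genes, 9 were in the promoter table.

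Nppa, the gene of atrial natriuretic peptide, had the largest difference of the called genes. Its brightest probe set read 34432, 37504, 43283 and 42094 in MI, against 8260 and 8085 in sham. No MI array came near a sham array. The difference was 2.26 ± 0.22 (SE) on the log2 scale, a 4.79-fold increase (limma adjusted p = 2.205e-07), and all 4 Nppa probe sets rose, by 2.26 to 2.63. The MI values were 64.9% to 75.6% of the highest value of their arrays. Among the called probe sets, 6 had an MI value above 50% of that highest value.

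Nppb, the gene of brain natriuretic peptide, read 19286, 18926, 22132 and 21503 in MI, against 10994 and 8804 in sham. It rose 2.08-fold (1.05 ± 0.23, adjusted p = 0.03471), and the groups did not overlap. Of the other 7 measured genes of the natriuretic peptide system none passed the test, and of all genes only 0.232% were called higher. In 4 of the 9 genes all MI arrays were above both sham arrays and in 3 all were below. The shares over all genes were 8.99% and 8.64%. Pam, which amidates peptides, was at 0.38 by its brightest probe set (adjusted p = 0.1774), with other Pam probe sets between -0.18 and 0.47, and Npr3, the clearance receptor, was at 0.36 (adjusted p = 0.8095). Npr1 and Npr2, the guanylyl cyclase receptors, were at -0.13 and 0.02. The other atrial markers had smaller differences: Myl4 was at 0.22, Myl7 at 0.19, Gja5 at 0.10 and Kcna5 at 0.04, all with overlapping groups.

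Acta1, skeletal α-actin, read 17547, 16238, 15371 and 17624 in MI, against 6710 and 6172 in sham. It rose 2.59-fold (1.37 ± 0.21, adjusted p = 0.0003198), with a narrow spread in both groups. Ankrd1, a titin-bound repeat protein induced by stretch, read 31380, 33803, 33953 and 37179 in MI, against 19815 and 21122 in sham. It rose 1.66-fold (0.73 ± 0.12, adjusted p = 0.0007013). Of the 16 Z-disc and stretch genes, Ankrd1 alone was called. In 6 all MI arrays were above both sham arrays, as in 8.99% of all genes, and in 1 all were below, as in 8.64% of all genes. Of the 16, 8 were below 0, and the median was 0.00, or 0.13 with the shunt sham arrays added to the controls. Csrp2, a LIM protein, was at 0.90 (adjusted p = 0.2193) and Csrp3 at 0.32 (adjusted p = 0.9931).

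The myosin heavy chains depended on the probe set. For Myh7, the β chain of the fetal ventricle, one probe set read 22310, 23638, 19691 and 21775 in MI, against 9712 and 14555 in sham, and rose 1.83-fold (0.88 ± 0.19, adjusted p = 0.03471). The brighter Myh7 probe set was at 0.12 ± 0.18, with overlapping groups. It is marked by its name as shared with a gene family and read 36813 to 47974 in MI and 40033 to 40457 in sham, close to the ceiling. Myh6, the α chain of the adult rat ventricle, had 3 probe sets between -0.44 and 0.09, all with the same mark. The lowest of these read 33783, 13260, 35622 and 35668 in MI, against 37422 and 36870 in sham, so that replicate 4 alone stood far below. Atp2a2, the calcium pump of the sarcoplasmic reticulum, had 4 probe sets between -0.17 and 0.12. The brightest, at 0.12, read 41597 to 57608 in MI and 44631 to 47946 in sham, also close to the ceiling. None of the 31 calcium handling genes passed the test (median -0.03), and of all genes only 0.232% were called higher. In 2 of the 31 all MI arrays were above both sham arrays and in 3 all were below. The shares over all genes were 8.99% and 8.64%.

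**Figure D1:**
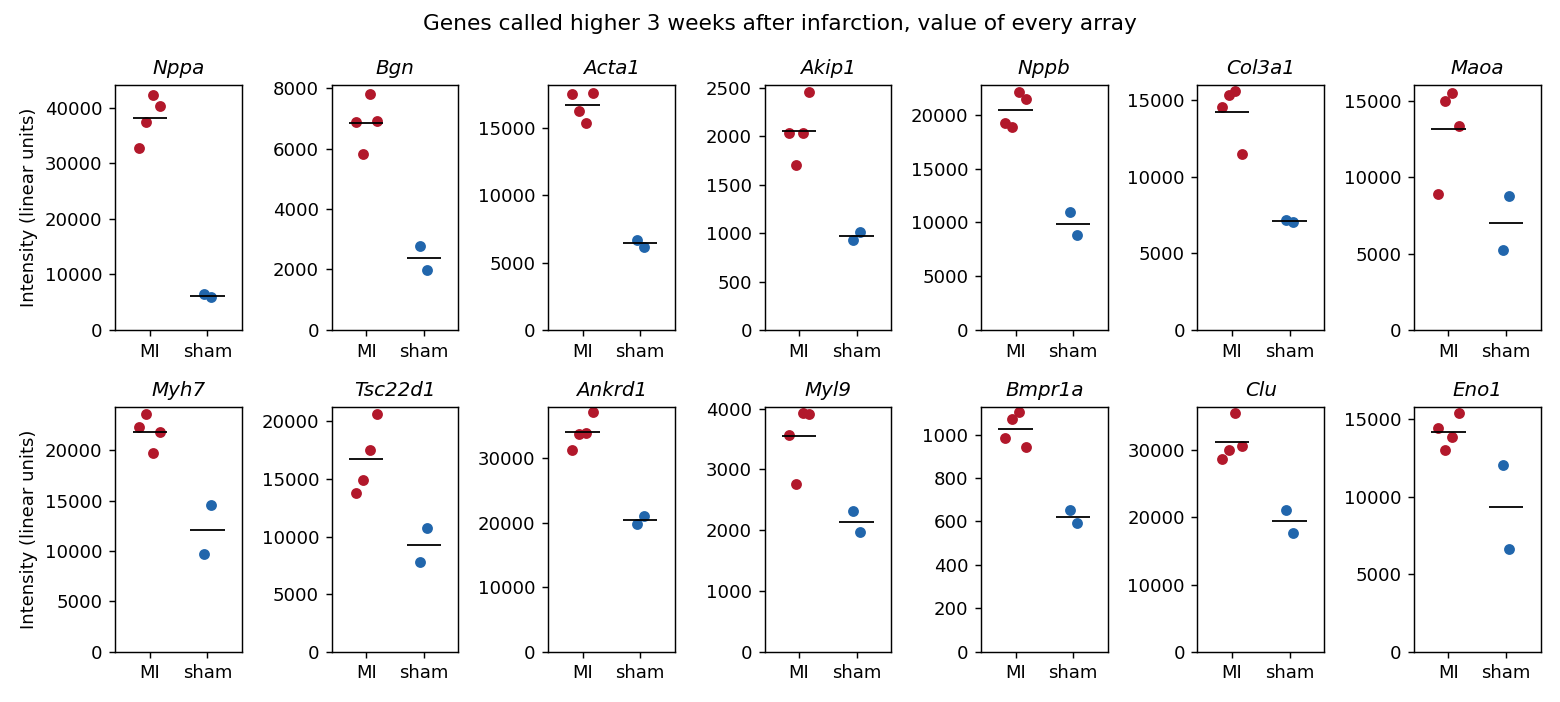
Intensity, in linear units, of 1 probe set for each of the 14 genes called higher, the one with the largest difference. Points are the 4 MI arrays (left) and the 2 sham arrays (right), lines are means, and every axis starts at 0. In all 14 genes the MI arrays lie above both sham arrays, with the narrowest gaps for Maoa, Eno1 and Myl9.

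Genes of the extracellular matrix were the next group. Collagen type III and biglycan passed the test. Col3a1, a fibrillar collagen of the interstitium, read 14553, 15338, 15585 and 11506 in MI, against 7173 and 7056 in sham, a 1.99-fold increase (0.99 ± 0.21, adjusted p = 0.03471). Bgn, a small proteoglycan that binds collagen, read 6872, 5832, 7818 and 6908 in MI, against 2762 and 1985 in sham, a 2.91-fold increase (1.54 ± 0.27, adjusted p = 0.002593). The other Bgn probe set, the brighter one, was at 0.61 (adjusted p = 0.2655), also without overlap.

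Beyond these calls, genes of the same kind were above sham on every MI array without passing the test. Postn, periostin of activated fibroblasts, read 645, 562, 717 and 849 in MI, against 193 and 150 in sham (4.03-fold, adjusted p = 0.08768). Col1a1 read 11567, 13953, 17213 and 11105 in MI, against 7050 and 5875 in sham (2.06-fold, adjusted p = 0.08768), and its 4 probe sets lay between 0.24 and 1.04. Fn1, fibronectin, was at 0.94 by its brightest probe set (adjusted p = 0.2655), yet its other 4 probe sets lay between -0.10 and 0.22. Spp1, osteopontin, was low on these arrays, at 408, 479, 517 and 362 in MI, against 219 and 174 in sham (adjusted p = 0.9998). Its standard error, 0.57, was estimated over all groups, and its MI arrays of 9 weeks ran from 477 to 5049. Loxl1, an enzyme that cross-links elastin, was at 1.09 (adjusted p = 0.2759) and Lum, lumican, at 0.90 (adjusted p = 0.2144). These last genes were named after their values were seen, as were all others in the text that are neither called nor in the list of heart genes fixed for naming.

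Counted by brightest probe set, 8.99% of all 4736 genes had all MI arrays above both sham arrays, and 8.64% had all MI arrays below both. The gene lists were chosen with earlier results of these data known, so counts set beside these shares are a description and no test. The lists also share genes: Postn and Col3a1 are fibroblast markers and matrix genes, and Lyz2 is in the macrophage and complement lists. Of 18 collagens and cross-linking genes, 10 were above without overlap and 0 below (median 0.27). Of 26 matricellular and other matrix genes, 13 were above and 0 below (median 0.23). That median was 0.40 with the shunt sham arrays added to the controls and 0.38 without sham replicate 1. Of 28 matrix proteases and inhibitors, 12 were above and 1 below, with a median of 0.03, which was 0.11 with the added sham arrays, 0.10 without sham replicate 1 and -0.003 without sham replicate 2. Timp1, an inhibitor of matrix metalloproteinases, was at 0.46 by its brighter probe set (adjusted p = 0.9931) and at 1.05 by the other (adjusted p = 0.7222). Timp2 was at 0.68 (adjusted p = 0.252). Mmp2, gelatinase A, was at 0.31 (adjusted p = 0.468) and Mmp9, gelatinase B, at -0.11.

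Of the 11 fibroblast markers, 1 (Col3a1) was called and 9 were above sham without overlap, against 8.99% of all genes. Their median was 0.85. Their summed level was 88227 to 112864 in MI and 61811 to 64462 in sham, and no marker stood at 0. By their brightest probe sets Dcn was at 0.38, Pdgfra at 0.29, Ddr2 at 0.17 and Thy1 at 0.01, and the other Thy1 probe set was at 0.80 (adjusted p = 0.1369). In tissue RNA, more cells of a type and more RNA per cell cannot be told apart. The part of fibroblast number in the matrix genes was not tested.

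Complement and lysosome genes were also mostly above sham, with 14 of 25 above without overlap, 0 below and none called (median 0.20, or 0.12 with the added sham arrays). The shares over all genes were 8.99% above and 8.64% below. Lyz2, lysozyme of macrophages, read 6126, 5590, 8620 and 7928 in MI, against 2599 and 1677 in sham (3.33-fold, adjusted p = 0.0932). Ctss, cathepsin S, was at 0.82 (adjusted p = 0.5796), and C1s, a complement protease, at 0.78 (adjusted p = 0.1934). Of 9 macrophage markers 4 were above without overlap. Their summed level was 20387 to 25244 in MI and 14815 to 15988 in sham, and their median was 0.18, which became 0.30 without sham replicate 1 and 0.05 without sham replicate 2. Csf1r, Itgam and Cd14 of that list were at -0.06, -0.11 and -0.15. The lists of lymphocytes, neutrophils and mast cells had medians of -0.02, 0.01 and -0.04, and the 4 red blood cell genes one of 0.08. Endothelial markers had no gene without overlap among 7 (median -0.13).

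The integrin and cytoskeleton list had 14 of 35 genes above without overlap and 0 below (median 0.15), with 1 call. Of all genes, 8.99% were above and 8.64% below without overlap. Myl9, a regulatory myosin light chain of smooth muscle, read 3564, 2768, 3934 and 3908 in MI, against 2312 and 1964 in sham (0.72 ± 0.15, adjusted p = 0.03471). Its other probe set was at 0.37 with overlap. The 6 smooth muscle markers, of which Myl9 is 1, had a median of 0.02 and a summed level of 29883 to 36634 in MI and 31665 to 32338 in sham. Vim, vimentin, was at 0.75 (adjusted p = 0.1002). Ribosomal protein genes showed smaller differences, 11 of 36 above and 1 below without overlap (median 0.14). This median was 0.05 after quantile normalization.

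Several called genes fell outside the matrix and fetal groups. Maoa, the mitochondrial enzyme that degrades noradrenaline and serotonin, rose by both of its probe sets. The brighter one read 18438, 21317, 24105 and 21046 in MI, against 10498 and 12645 in sham (0.88 ± 0.19, adjusted p = 0.03703). Clu, clusterin, a secreted chaperone, read 28729, 29979, 35595 and 30592 in MI, against 21173 and 17629 in sham (0.69 ± 0.14, adjusted p = 0.01647). Bmpr1a, a type I receptor of bone morphogenetic proteins, read 983, 1073, 1103 and 944 in MI, against 652 and 593 in sham (0.72 ± 0.13, adjusted p = 0.006876).

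Tsc22d1, a leucine zipper protein induced by TGF-β, read 13746, 14908, 17559 and 20643 in MI, against 7757 and 10706 in sham (0.86 ± 0.19, adjusted p = 0.04893). Akip1, a partner of protein kinase A, rose by 1 of its 4 probe sets, which read 2031, 1700, 2032 and 2455 in MI, against 925 and 1013 in sham (1.07 ± 0.24, adjusted p = 0.04973). The brightest Akip1 probe set was at -0.09. Eno1, a glycolytic enolase, read 14422, 13053, 13829 and 15380 in MI, against 12048 and 6636 in sham (0.66 ± 0.15, adjusted p = 0.04861). Its sham arrays lay far apart, and without sham replicate 2 the difference was 0.23 and not called. Its other probe set was at 0.06.

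**Figure D2:**
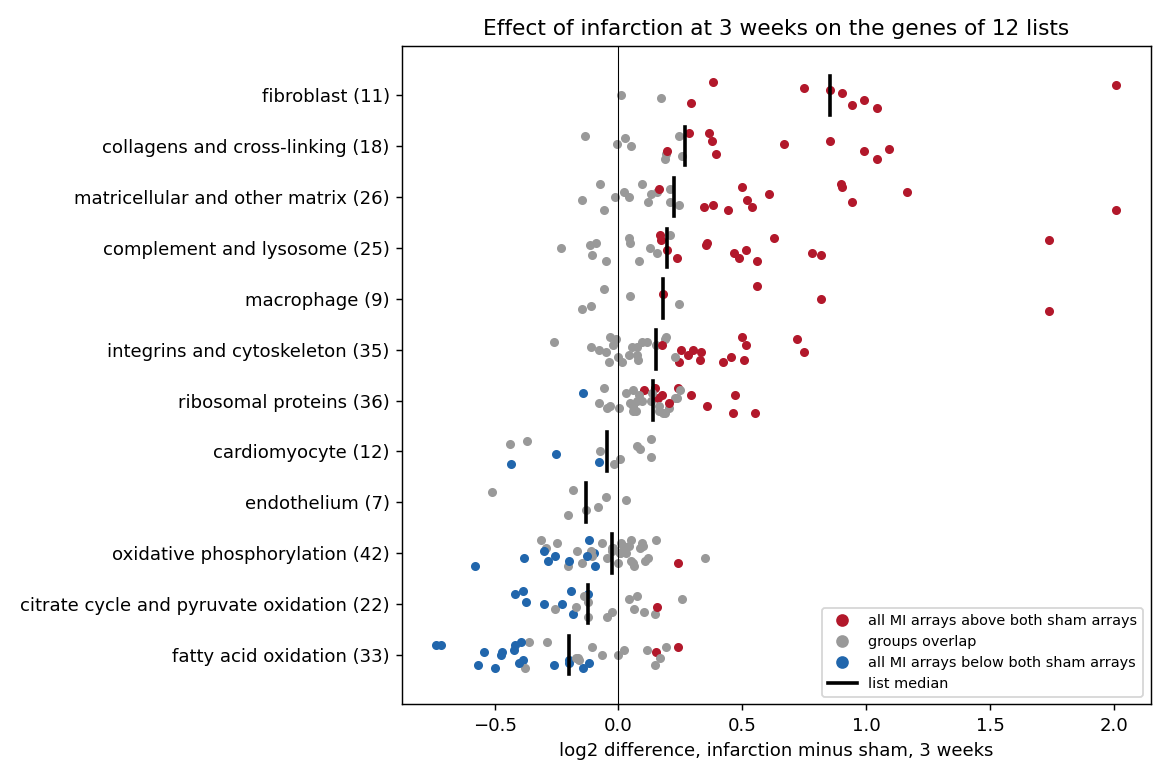
Log2 difference, MI minus sham at 3 weeks, for the genes of 12 lists, 1 point per gene by its brightest probe set and the number of genes in parentheses. Red points have all MI arrays above both sham arrays, blue points all below, grey points overlap, and bars are list medians, from 0.85 for fibroblast markers to -0.20 for fatty acid oxidation.

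Below sham, no gene passed the test, and the genes of fatty acid oxidation had the largest share of members below without overlap among the lists examined. Of 33 measured genes, 26 were below 0, 17 had all MI arrays below both sham arrays against a background of 8.64%, and 2 had all above. The median was -0.20, against -0.0036 over all genes. The summed level of the list was 149459 to 177155 in MI and 199742 to 203538 in sham. It was lower on each of the 4 MI arrays than on either sham array, and the array medians of the list ran from -0.34 to -0.11.

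Decr1, the reductase for unsaturated fatty acyl chains, read 6167, 8785, 7207 and 7255 in MI, against 12571 and 11724 in sham. It was 0.601-fold of sham (-0.73 ± 0.19, adjusted p = 0.1151). Ech1 and Eci1, which also handle unsaturated chains, were at -0.57 (adjusted p = 0.2655) and -0.47 (adjusted p = 0.1369). Both subunits of the mitochondrial trifunctional protein were below sham without overlap. Hadha read 8572, 8857, 7374 and 8625 in MI, against 10619 and 11280 in sham (-0.39 ± 0.12, adjusted p = 0.2759), and Hadhb was at -0.47 (adjusted p = 0.9155).

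The acyl-CoA dehydrogenases of very long, long and medium chains, Acadvl, Acadl and Acadm, were at -0.54, -0.42 and -0.39, and the thiolase Acaa2 was at -0.50. The carnitine carrier Slc25a20 was at -0.40 and Cpt2 at -0.36. Cpt1b, the muscle enzyme that admits fatty acids to the mitochondrion, was at -0.16 with overlap, and Cpt1a at 0.02. Acsl5, an acyl-CoA synthetase, and Crot, of peroxisomes, were at 0.24 and 0.15 and were the members above sham without overlap, among 7 above 0.

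**Figure D3:**
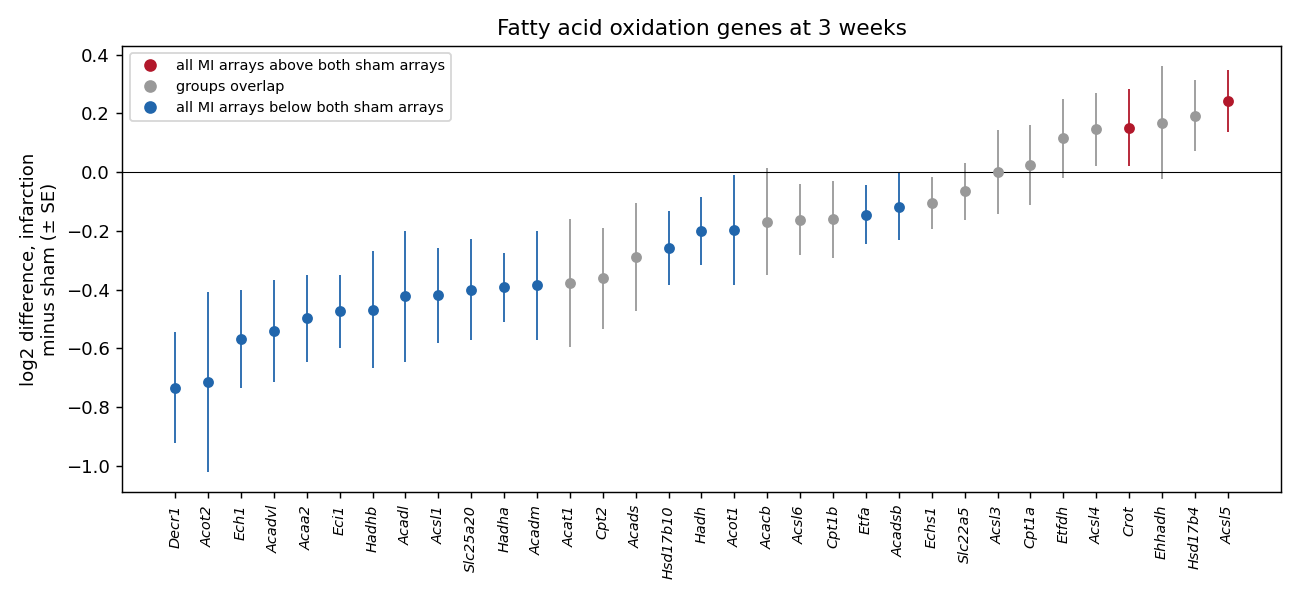
Log2 difference, MI minus sham at 3 weeks, with its standard error, for the 33 fatty acid oxidation genes in order of size. Blue points have all 4 MI arrays below both sham arrays (17 genes), red points all above (2 genes), and grey points overlap; Decr1 has the lowest value, -0.73.

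Other metabolic lists leaned the same way to a lesser degree. For comparison, 8.64% of all genes were below and 8.99% above without overlap. In the citrate cycle and pyruvate oxidation list 8 of 22 genes were below without overlap and 1 above (median -0.12), led by Suclg1 at -0.42 (adjusted p = 0.8009). In oxidative phosphorylation 10 of 42 were below and 1 above (median -0.02), with Ndufs7 at -0.58 and Ndufa9 at -0.38. That median was -0.10 after quantile normalization, -0.12 with the added sham arrays, -0.08 without sham replicate 2 and 0 without sham replicate 1. In lipid uptake and PPAR-α targets 7 of 24 were below and 0 above (median -0.07), with the glycerol channel Aqp7 at -0.68 (adjusted p = 0.2759). The receptor Ppara itself was at 0.05. Glycolysis and glucose uptake had 3 genes of 26 above and 3 below, and Slc2a4, the insulin-sensitive glucose transporter, had probe sets at 0.36 and -0.09.

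Of 40 chemokine, cytokine and adhesion genes 3 were above and 0 below without overlap (median -0.02), and of 28 cell cycle genes 3 were above and 4 below (median 0.00). Potassium channels had 0 above and 2 below of 22 (median -0.04), and the renin-angiotensin and endothelin list 2 above and 0 below of 18 (median -0.02). Without overlap, 8.99% of all genes were above and 8.64% below, and these lists were not tested against those shares. Cardiac transcription factors had 10 of 11 genes below 0 at 3 weeks, and 4 of the 11, Hand1, Hand2, Foxo1 and Esrra, were below without overlap (median -0.10), and 10 of 11 above 0 at 9 weeks (median 0.10). None of these genes was called at 3 weeks.

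The calls depended on the arrays used. Adding the 2 sham arrays of the shunt experiment to the controls gave 65 probe sets higher and 13 lower. Under that setting the calls below sham included Decr1 (-0.91, adjusted p = 0.00144), Ech1, Eci1, Acaa2, Hadha, Acadvl and Aqp7. Those above included Postn (2.23, adjusted p = 0.00144), Col1a1, Fn1 and Lyz2, while Eno1 was no longer called. Leaving out sham replicates 1 and 2 in turn gave 17 and 12 probe sets higher and 2 and 3 lower. Leaving out MI replicates 3, 4, 5 and 6 in turn gave 12, 10, 8 and 10 higher and 0 lower. Without sham replicate 2 the adjusted p was 0.263 for Bgn, 0.291 for Bmpr1a, 0.394 for Col3a1 and 0.989 for Nppb. The 4 Nppa probe sets, Acta1 and Ankrd1 were called in all 13 alternatives. Of the other 12 probe sets, those of Bgn and Bmpr1a were called in 12 of the 13 and that of Clu in 9. Col3a1, Myl9, Akip1 and both Maoa probe sets were called in 7, Nppb, Tsc22d1 and Myh7 in 6, and Eno1 in 5.

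The effects at 3 weeks were next set against those at 9 weeks, where 148 probe sets rose (1.69%) and 20 fell (0.229%). Both comparisons have their own sham arrays. Of the 18 probe sets called at 3 weeks, 13 were also called at 9 weeks (72.2% of 18, and 7.74% of the 168 called at 9 weeks), and all 18 were above sham there. Seen from 9 weeks, 122 of the 148 probe sets that rose were above 0 at 3 weeks, with a median of 0.24 at 3 weeks and 0.77 at 9 weeks. Of the 20 that fell, 11 were below 0 at 3 weeks, with medians of -0.04 and -0.67. Over all 8740 probe sets the effects at the 2 times correlated with r = 0.336, across probe sets that share arrays and are not independent replicates.

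The difference between the 2 times was tested directly. No probe set passed (0%), with 509 at an unadjusted p under 0.05. Leaving out 1 array gave 0 to 6 calls: 5 without sham replicate 1 or 2 of 3 weeks, 5 and 6 without sham replicates 5 and 6 of 9 weeks, and 1 without MI replicate 3. The closest was Des, desmin of the intermediate filaments. It read 21869, 18852, 15177 and 14626 in MI at 3 weeks, against 19856 and 18800 in sham, with overlap. At 9 weeks it read 28320, 22282, 22379 and 22168 in MI, against 10438 and 13129 in sham. The difference of the effects was -1.17 ± 0.22 (adjusted p = 0.07391).

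Other genes with the smallest p for this difference were Actb, cytoplasmic actin (0.07 at 3 weeks and 0.95 at 9 weeks, adjusted p of the difference 0.547), and Lgals1, galectin-1 (-0.04 and 0.99, 0.5484). Also among the 10 were Rasgrf1, Selenow, Rassf2, Aldoa, Sgk1, Defb4 and Grpca, all with a difference below 0. Among the called genes, Ankrd1 was at 0.73 at 3 weeks and 0.69 at 9 weeks, Clu at 0.69 and 0.68, and Col3a1 at 0.99 and 1.01. Acta1 was at 1.37 and 1.77, and the 4 Nppa probe sets at 2.26 to 2.63 and at 2.65 to 3.18. Myl9 was at 0.72 and 0.31 and Eno1 at 0.66 and 0.36, and neither was called at 9 weeks. Maoa, at 0.88 and 0.69 by its brighter probe set, and Tsc22d1, at 0.86 and 0.67, narrowly missed the threshold there. Their limma adjusted p at 9 weeks was 0.05161 and 0.05992. Postn was at 2.01 and 2.39, though at 9 weeks its MI arrays ran from 227 to 2207, against 112 and 123 in sham. Of the 17 fatty acid oxidation genes below sham without overlap at 3 weeks, 15 were below 0 at 9 weeks, with medians of -0.42 at 3 weeks and -0.21 at 9 weeks. These 17 were chosen by their values at 3 weeks; over the whole list the medians were -0.20 at 3 weeks and -0.13 at 9 weeks, and 2 of the 33 genes of the list were called lower at 9 weeks.

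The shunt at 3 weeks gave no call (0%), with 843 probe sets at an unadjusted p under 0.05, against 400 for MI at 3 weeks. All 18 probe sets called after MI were above 0 with the shunt. The brightest Nppa probe set read 16178 and 20440 in shunt, against 8112 and 7387 in its sham, and its effect was 2.26 after MI and 1.23 with the shunt (difference 1.03, unadjusted p = 0.005227, limma adjusted p = 0.7275). Ankrd1 was at 0.73 after MI and 0.17 with the shunt, where it read 26472 and 28787 in shunt, against 23908 and 25358 in sham. Acta1 was at 1.37 and 0.86.

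The test of MI minus shunt called no probe set (0%), with 515 at an unadjusted p under 0.05. This count depended on the shunt arrays: without shunt replicate 1 it was 193, without shunt sham replicates 3 and 4 it was 4 and 10, and without shunt replicate 2 it was 1. Without either sham array of the MI experiment it was 3. The gene with the smallest p was Lifr, the leukaemia inhibitory factor receptor, at -0.48 after MI and 0.62 with the shunt (difference -1.10 ± 0.22, adjusted p = 0.1702). It read 423, 427, 396 and 378 in MI, against 483 and 661 in sham. Timeless, Lin7c, Csnk1g1, Chdh, Cdkn1b, Cmss1, Sgk1, Rpl19l4 and Tubg1 completed the 10 with the smallest p. The ceiling probe sets themselves were at -0.58 to -0.57 with the shunt, so that differences between the models in the brightest sarcomere genes cannot be told apart from the ceiling.

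**Figure D4:**
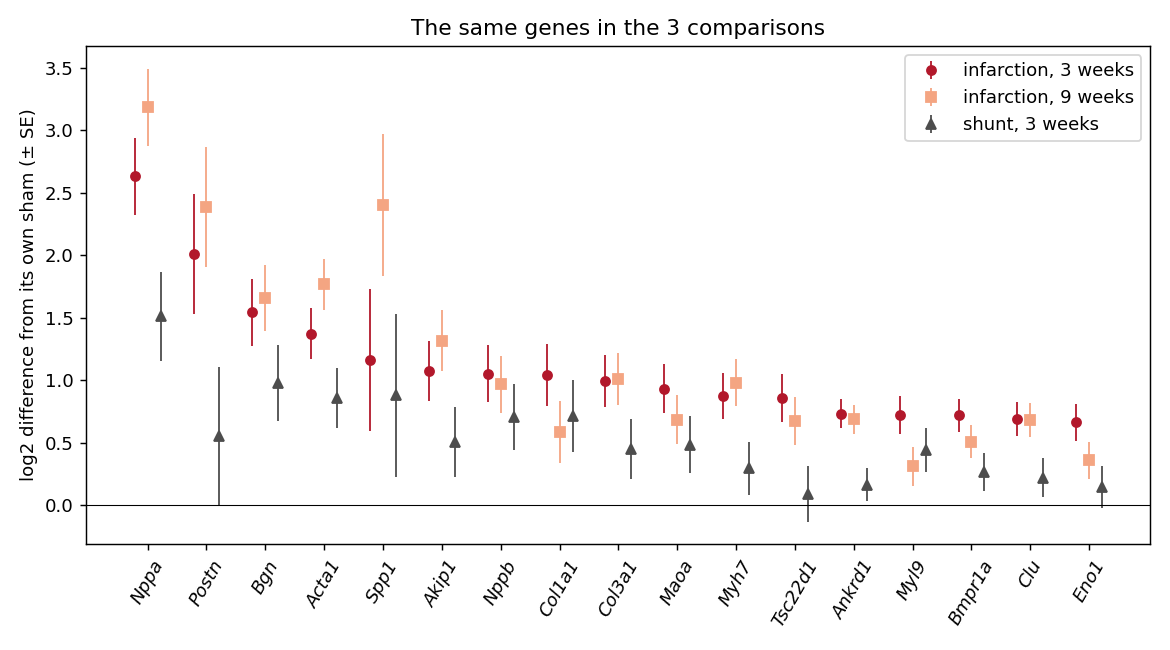
Log2 difference from the matching sham arrays, with its standard error, for the 14 called genes (the probe set with the largest difference at 3 weeks) and Postn, Spp1 and Col1a1, after MI at 3 weeks (circles), after MI at 9 weeks (squares) and with the shunt at 3 weeks (triangles). All values lie above 0, and Nppa is the highest in all 3 comparisons.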

How the data were processed

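The authors hybridised pooled left ventricular RNA to Affymetrix RGU34A arrays. The deposited values are intensities on a linear scale, which the authors made with dChip by invariant-set normalization and a model of perfect-match probes only. Detection calls and probe-level values were not used here. Values under 16 were raised to 16 and taken to log2. limma 3.58.1 in R 4.3.3 was fitted to all 46 arrays with 20 groups, and p-values were adjusted over 8740 probe sets by the method of Benjamini and Hochberg. Fold changes are 2 to the power of the log2 difference. A gene was read by its brightest probe set unless stated. Named by rule, by brightest probe set, were the genes called, a list of 16 heart genes (Nppa, Nppb, Acta1, Myh6, Myh7, Atp2a2, Col1a1, Col3a1, Fn1, Postn, Spp1, Timp1, Ankrd1, Hadha, Cpt1b and Slc2a4), and the 10 genes with the smallest p for each difference. Bgn and Akip1, called by a dimmer probe set, were named after their values were seen. The members and gene lists were chosen with earlier results of these data known. The scripts were tested on simulated data. Probe names came from the platform annotation, which left 1426 probe sets without a symbol and 308 with several; names can be old.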

Additional observations from a re-analysis of the deposited data

Results flagged for a closer look

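In 6 of 59 named probe sets 1 of the 4 MI arrays stood apart from the other 3, with a gap to the nearest value, as a share of the range of the group, above Dixon's critical value. Chance flags about 1 in 20 groups. Myh6 read 13260 on replicate 4, and the nearest array read 33783. Fstl1, a secreted glycoprotein, read 7753 on replicate 4, with the nearest at 9916. Lum read 5150 on replicate 6 (nearest 6306), Vim 9490 on replicate 5 (nearest 8571), Acaa2 13577 on replicate 4 (nearest 11049) and Pam 32694 on replicate 6 (nearest 28236). The values of Myh6, Fstl1 and Lum were low and those of Vim, Acaa2 and Pam high. No test of a difference between 3 and 9 weeks or between MI and shunt passed.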

How the results depend on the processing

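The 18 probe sets called higher stayed 18 with a floor of 32, with log2 of the value plus 16 and with a mean of at least 100. After quantile normalization 10 of the 18 were called and no others. The 8 lost there were of Maoa, Tsc22d1, Clu, Nppb, Eno1, Myh7 and Col3a1. Ankrd1 was at 0.50 there against 0.73 in the main setting, and Clu at 0.46 against 0.69. The brightest Nppa probe set was at 1.90 against 2.26, while the called Bgn probe set was at 1.54 in both. With only the 6 arrays in the fit 34 were called higher, which kept 12 of the 18. Lost there were probe sets of Maoa, Tsc22d1, Clu, Myl9, Eno1 and Myh7. Genes newly called with only the 6 arrays included Postn, Spp1, Fn1, Timp1, Lyz2, Col1a2, Loxl1, Lum, Vim and Ech1. For these genes, failing the main test depended on the spread taken from the other groups. With both sham groups of 3 weeks as controls 65 were called higher, and 73 with array weights, which kept 17 and 18 of the 18. Counted by the brightest probe set of each gene the calls were 11, a count chosen after seeing the data. Calls lower, 0 in the main setting, were 1 with only the 6 arrays, 13 with both sham groups and 12 with array weights. Leaving out 1 array gave 8 to 17 higher and 0 to 3 lower, and with a lone sham array that array was taken to vary like the other groups. The difference between 3 and 9 weeks had 2 calls with array weights, and 0 to 6 when an array was left out. The difference between MI and shunt had 1 call with a floor of 32, and 0 to 193 when an array was left out. No called probe set changed sign under any of the 13 alternatives. The cause of these changes was not tested. No paired analysis was possible because the MI and sham arrays of 3 weeks share no replicate number. The medians of the chemokine, lymphocyte and mast cell lists changed sign with both sham groups as controls, to 0.05 each. The number of arrays limits the precision.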
